A study of Mus musculus with 26 samples.

Results

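The heat shock proteins and their partners, the molecular chaperones that fold, refold and sort other proteins, were followed across RNA-seq libraries of the mouse accumbens nucleus. Members were chosen by symbol: the Hspa, Hspb, Hspd, Hspe, Hsph and Hsp90 genes, the J-domain genes Dnaja, Dnajb and Dnajc, the cytosolic chaperonin genes Tcp1 and Cct2 to Cct8, and Stip1, St13 and Bag3, with at least 10 counts in at least 3 of the 26 libraries. Of 87 symbols that matched, 77 met the count minimum, out of 31735 genes shared by all files, of which 16008 met the same minimum. The 10 that did not were Cct6b, Dnajb7, Dnajb8, Dnajb13, Dnajc5b, Dnajc5g, Dnajc22, Hspb2, Hspb3 and Hspb9. The 77 comprise 11 Hsp70, 3 Hsp110, 3 Hsp90, 2 mitochondrial Hsp60 and Hsp10, 5 small heat shock, 39 J-domain (4 Dnaja, 10 Dnajb, 25 Dnajc), 8 chaperonin and 5 cochaperone genes, and Cct8l1.

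All mice carried the Drd2-TRAP transgene (line CP101), which tags ribosomal protein L10a with EGFP in cells that use the Drd2 promoter, on a mixed background crossed to C57BL/6, and all had long access to intravenous self-administration. That promoter is used by D2-type medium spiny neurons, and cholinergic interneurons of the accumbens use it too. Polysome RNA pulled down with antibodies against EGFP was sequenced in 24 libraries: saline (n = 3), cocaine without escalating intake, called nonescalating (n = 5), cocaine with escalating intake, called escalating (n = 2), and, after withdrawal, saline (n = 6) and nonescalating (n = 8). Input RNA was sequenced in 1 saline and 1 nonescalating library. The sources used here give neither age nor length of withdrawal. For the 5 nonescalating libraries, 1 label field speaks of withdrawal and the title does not; grouping here is by title. Library numbers form 2 runs, called library sets 1 and 2 here, and set 2 holds only withdrawal libraries (3 saline, 5 nonescalating). The labels do not say whether each library is 1 animal, so n is a number of libraries, and the p-values reflect library-to-library spread only, which may be technical.

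Hsp70 proteins bind exposed hydrophobic stretches of clients in a cycle driven by ATP. J-domain proteins (Hsp40) bring clients and start hydrolysis, and nucleotide exchange factors such as the Hsp110 proteins and Bag3 end the cycle. Clients may pass to Hsp90 through Stip1 (Hop), while the chaperonins enclose them in a ring: the CCT ring in the cytosol, which folds actin and tubulin, and Hspd1 with its lid Hspe1 in mitochondria. In neurons, Hspa8 works with Dnajc5 on synaptic vesicles and with Dnajc6 (auxilin) in stripping clathrin coats. The heat shock factor binds heat shock elements in the promoters of inducible members, and the unfolded protein response acts on chaperone genes of the endoplasmic reticulum (ER) through ER stress elements.

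Since both kinds of element are known from chaperone genes, RefSeq promoter windows (250 bases before to 50 after each annotated start, GRCm38.p6) were searched for both elements on both strands. Windows were found for 64 of the 77 members. The heat shock element was spelled as 3 alternating units, the outer ones GAA and the inner one TTC, with 2 bases of any kind between neighbours (on the other strand the outer units read TTC), and was in the windows of 4 of 64 members (6.25%), against 0.662% of 27025 genes. The ER stress element was spelled as the first 5 and the last 5 capital letters of the Hspa5 stretch printed here, with 9 bases of any kind between them, on either strand, and was in the windows of 3 of 64 members (4.69%), against 0.137% of genes. These are the stretches that hold the matches, with the matched letters in capitals.

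Hspe1: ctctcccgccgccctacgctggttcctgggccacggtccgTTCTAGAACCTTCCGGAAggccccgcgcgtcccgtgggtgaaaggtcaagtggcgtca
Dnajb6: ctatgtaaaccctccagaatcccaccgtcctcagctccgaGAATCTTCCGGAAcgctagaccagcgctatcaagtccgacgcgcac
Hsph1: gctgcagaTTCTGGAAAGTTCtcctcag
Hspa5: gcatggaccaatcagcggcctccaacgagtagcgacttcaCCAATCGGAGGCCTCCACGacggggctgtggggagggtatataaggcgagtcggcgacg
Hsp90b1: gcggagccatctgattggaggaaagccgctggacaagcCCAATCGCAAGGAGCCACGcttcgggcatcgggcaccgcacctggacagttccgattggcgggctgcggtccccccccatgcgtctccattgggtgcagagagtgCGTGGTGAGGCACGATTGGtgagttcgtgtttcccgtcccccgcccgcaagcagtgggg
Dnajc3: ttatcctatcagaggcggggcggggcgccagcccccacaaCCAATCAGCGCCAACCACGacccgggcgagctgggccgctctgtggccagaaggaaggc

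Hspe1 and Hspd1 are transcribed away from each other, and the Hspe1 stretch (chr1:55088019-55088116, plus strand as shown) lies in both windows, so that 2 of the 4 members share 1 site. It holds 2 overlapping matches, at positions -89 to -72 before the start of Hspe1. The Dnajb6 stretch is chr5:29735812-29735897 (plus strand, match at -46 to -34). In Hsph1 (chr5:149636281-149636308, minus strand) the match lies at positions 16 to 28, counted from the start as 1. The ER stress elements are in Hspa5 (chr2:34771985-34772083, plus strand, -65 to -47), in Hsp90b1 (chr10:86705493-86705694, minus strand, 2 matches on opposite strands) and in Dnajc3 (chr14:118937787-118937885, plus strand, -105 to -87). A match describes letters only, and the other windows may hold elements spelled otherwise.

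Total gene counts per polysome library ran from 1541717 to 17504022 and were 4700347 and 37500580 in the saline and nonescalating inputs. Levels are given as CPM, each library's counts scaled to 1 common total and adjusted by a scaling factor for each library. By the totals alone, before that factor, 3 counts equal 0.173 to 1.96 CPM in the polysome libraries, so members under a few CPM rest on few counts. The share of records that the counting placed in no feature ran from 29.7% to 62.5% in the polysome libraries. It was 43.8% and 25.4% in the saline and nonescalating inputs. The kind of feature counted is not stated, so this share may include records inside annotated genes but outside the counted features. The summed level of 6 D2 neuron markers was 659 to 9263 CPM in polysome libraries against 1157 and 1604 in the inputs. Nonescalating replicate 4 stood apart with 242 CPM of Drd2 and 659 CPM of the D2 markers, both below the inputs, and with 76507 CPM of the nuclear RNA Malat1. Saline replicate 1, nonescalating replicate 4 and replicate 5 of nonescalating withdrawal in set 2 had the lowest correlations with the other polysome libraries, and results that turn on them are also given without them.

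The members were unequal in level, with a few cytosolic chaperones far above the rest. Per length, as RPKM (CPM per kilobase of merged exons), Hsp90ab1, the constitutive cytosolic Hsp90 (chromosome 17, 45567775 to 45573271, minus strand, mm10), stood first with a mean of 592 RPKM over the 24 polysome libraries. It was followed by Hspa8, the constitutive cytosolic Hsp70 (149 RPKM), Hsph1, a cytosolic Hsp110 (106 RPKM), Hsp90aa1, the inducible cytosolic Hsp90 (82.9 RPKM), and Hspd1 (59.0 RPKM). In CPM, Hsp90ab1 alone made up 22.5% of the members' total, and Hsp90ab1, Hsph1 and Hspa8 together made up 40.4%. Of the 77 members, 19 had a mean of at least 100 CPM and 16 one under 10 CPM. These shares are of libraries of mixed cells: in such samples, fewer cells of a type and less RNA per cell cannot be told apart.

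Hsp90ab1 had 1287, 2854 and 1680 CPM in saline replicates 1, 3 and 4. Values were 2040, 1234, 2005, 994 and 1360 CPM in the 5 nonescalating libraries and 2088 and 2589 CPM in the 2 escalating ones. Saline withdrawal libraries had 1094 to 2568 CPM (median 2023) and nonescalating withdrawal libraries 1093 to 2374 CPM (median 1595). The ranges overlapped except that both escalating libraries lay above all 5 nonescalating ones (log2 fold change 0.62, SE 0.37, adjusted p = 0.58), which did not pass. Its inputs, 1762 and 2275 CPM, lay within the range of the pull-down.

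Hspa8 had 338, 1088 and 471 CPM in saline, 725, 409, 896, 276 and 432 CPM in nonescalating and 443 and 909 CPM in escalating libraries. After withdrawal it had 312 to 1041 CPM (median 773) in saline and 502 to 1005 CPM (median 573) in nonescalating libraries. Saline replicate 3 was the highest of all and nonescalating replicate 4 the lowest, and all groups overlapped. The 2 inducible genes of the same family, Hspa1a and Hspa1b, were near the limit of detection: Hspa1a had 0 to 20.2 CPM with 4 polysome libraries at 0, and Hspa1b had 0 to 7.66 CPM with 13 at 0. Both escalating libraries had 1 count of Hspa1a (0.0662 and 0.147 CPM), below all 3 saline libraries (1.84 to 7.32 CPM), while Hspa1b had 1.32 and 7.66 CPM there and 0 in saline. For the members in all, 2 of 74 (Hspa1a and Dnajc25) had both escalating libraries below saline, against 6.53% of all genes, and 0 had both above, against 7.68%. Hspa1a and Hspa1b share 60.3% and 62.3% of their 50-base stretches with other genes, mainly each other. Records with several alignments stood in a row apart from the genes, so both levels may be too low.

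**Figure D1:**
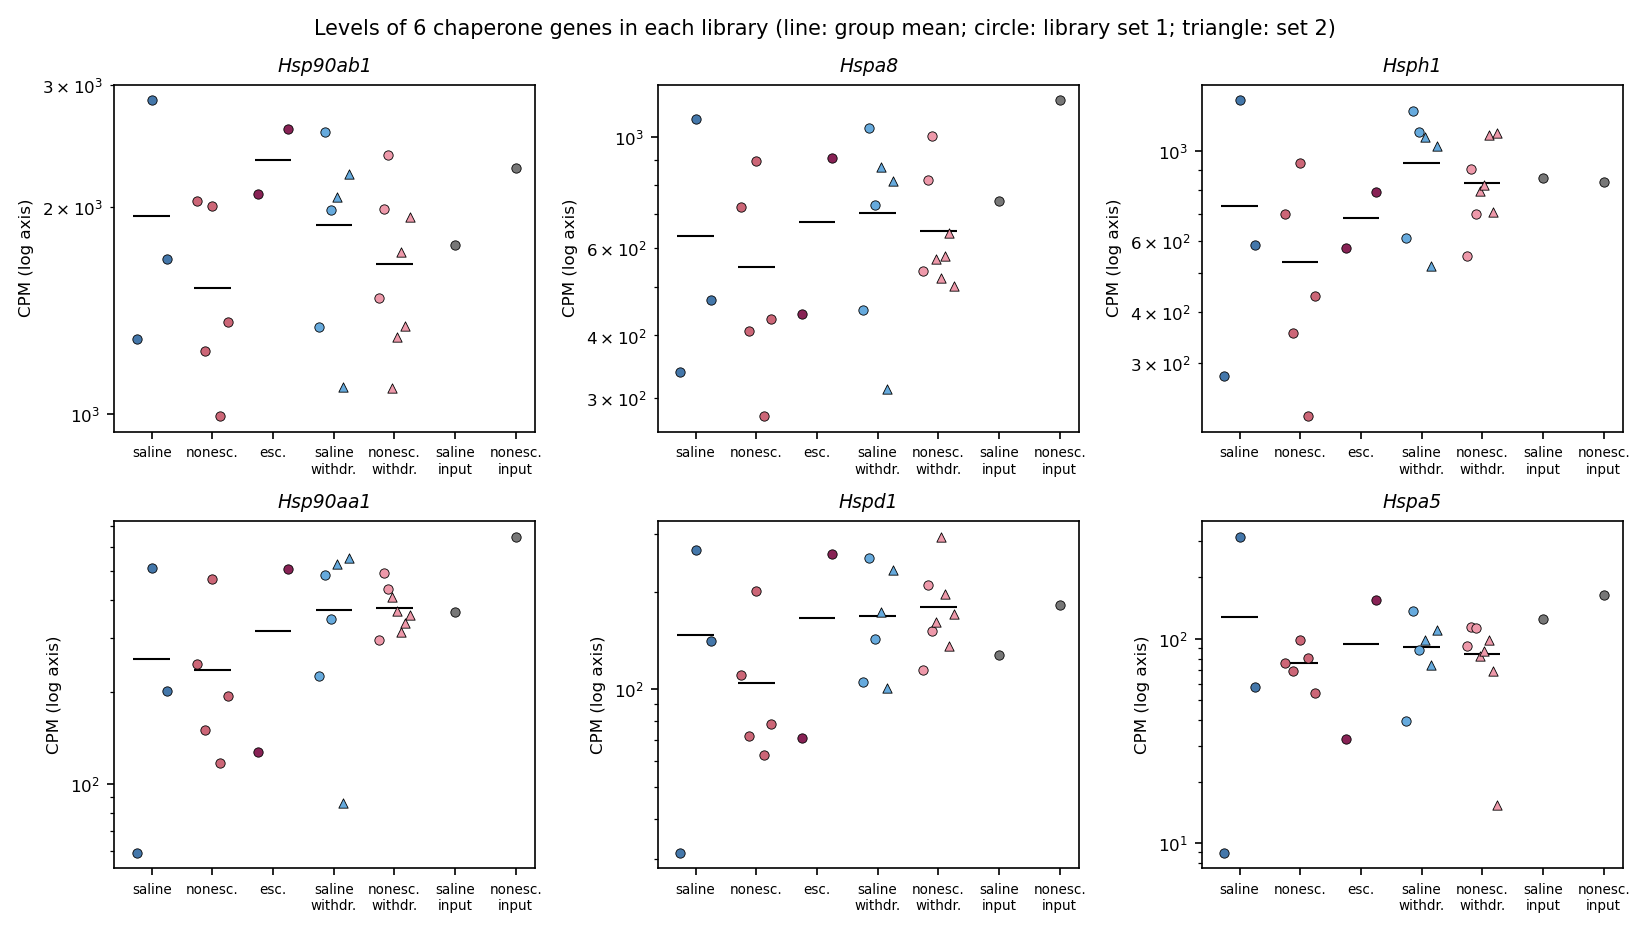
Level in CPM (log axis) of Hsp90ab1, Hspa8, Hsph1, Hsp90aa1, Hspd1 and Hspa5 in every library by group; points are libraries, lines group means. Of the groups compared, only escalating and nonescalating in Hsp90ab1 do not overlap, and saline replicates 1 and 3 are the low and high extremes of the saline group in each panel.

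Among the nucleotide exchange factors, Hsph1 (chromosome 5, 149614287 to 149636376, minus strand) had 279, 1336 and 586 CPM in saline and 701, 356, 938, 222 and 438 CPM in nonescalating libraries. After withdrawal it had 521 to 1258 CPM (median 1058) in saline and 552 to 1107 CPM (median 813) in nonescalating libraries. The withdrawal ranges overlapped those without withdrawal, and the difference between nonescalating with and without withdrawal did not pass (log2 fold change 0.55, SE 0.39, adjusted p = 1). Hspa4, a second Hsp110, averaged 252 CPM ± 91.8 (SD, n = 24), and Hspa4l, its relative, 92.6 CPM ± 40.6 (SD, n = 24).

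The J-domain genes spread over a wide range of levels. The highest per length were Dnaja2 (41.9 RPKM) among the A class, Dnajb5 (14.96 RPKM) among the B class and Dnajc5 (40.8 RPKM), the synaptic vesicle cochaperone, among the C class; the lowest were Dnaja3 (6.31 RPKM), Dnajb3 (0.410 RPKM) and Dnajc12 (0.448 RPKM). Dnajc5 had 324, 190 and 280 CPM in saline, 115 to 407 CPM in nonescalating, 316 and 368 CPM in escalating, and 153 to 424 CPM in the withdrawal groups. Dnajc6, auxilin, had 32.8, 202 and 109 CPM in saline, 51.5 to 280 CPM in nonescalating and 99.0 and 246 CPM in escalating libraries. Both partners of Hspa8 at the synapse therefore overlapped between all groups. Dnaja1, a cytosolic class A member, had 32.8 to 168 CPM in saline and 42.9 to 152 CPM in nonescalating libraries. Dnajb1, the main partner of inducible Hsp70, averaged 32.0 CPM ± 24.4 (SD, n = 24), and Dnajb6, which restrains aggregation of polyglutamine proteins, 43.2 CPM ± 14.6 (SD, n = 24).

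The 8 chaperonin genes encode subunits that stand in equal number in the ring, and their levels were less spread than those of the J-domain genes. Cct2 was highest per length (42.2 RPKM) and Cct3 lowest (5.39 RPKM). Tcp1, subunit 1, averaged 97.5 CPM ± 38.4 (SD, n = 24), Cct2 108 CPM ± 57.1 (SD, n = 24) and Cct5 57.1 CPM ± 26.5 (SD, n = 24). Exons of Tcp1, Cct6a, Cct7 and Cct8 overlap genes on the other strand. The counting's strand setting is not given, so part of their counts may come from those genes.

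Among mitochondrial chaperones, Hspd1 and Hspe1, whose promoter stretch is printed above, ran side by side in saline: 31.5, 268 and 141 CPM of Hspd1 and 1.71, 37.6 and 27.5 CPM of Hspe1 in replicates 1, 3 and 4. They parted elsewhere. Nonescalating replicate 3 had the highest Hspd1 of its group, 201 CPM, with 8.05 CPM of Hspe1, and nonescalating replicate 5 had 78.5 CPM of Hspd1 with 32.7 CPM of Hspe1, the highest of the group. Annotated exons of the pair also overlap on opposite strands. Hspd1 shares 39.7% and Hspe1 18.4% of their 50-base stretches with pseudogenes and other genes, so both levels are uncertain. Hspa9, the mitochondrial Hsp70, averaged 96.6 CPM ± 38.1 (SD, n = 24).

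The 3 ER members with an ER stress element did not share 1 pattern. In saline replicates 1, 3 and 4, Hspa5 (BiP, the ER Hsp70) had 8.99, 316 and 57.9 CPM. Hsp90b1 (Grp94, the ER Hsp90) had 102, 292 and 212 CPM in the same libraries. Dnajc3, an ER J-domain protein, had 68.1, 41.5 and 59.4 CPM, in the reverse order of the libraries. Within the nonescalating libraries Hspa5 ran from 54.1 to 98.5 CPM, Hsp90b1 from 97.4 to 373 CPM and Dnajc3 from 10.9 to 96.5 CPM, and nonescalating replicate 3 had both the highest Hspa5 and Hsp90b1 and the lowest Dnajc3.

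The small heat shock genes were low. Hspb1 had 0 to 31.9 CPM with 4 polysome libraries at 0, and its highest value was in escalating replicate 1. Per length Hspb1 was the highest of the family (4.51 RPKM) and Hspb7 the lowest (0.635 RPKM, 18 libraries at 0). Hspb1 shares 48.8% of its 50-base stretches with the pseudogene Hsp25-ps1.

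The summed level of all 77 members varied widely within the groups. It was 5674, 11401 and 6504 CPM in saline replicates 1, 3 and 4, and 7894, 5791, 9478, 4377 and 5524 CPM in nonescalating replicates 1 to 5. It was 6800 and 10219.5 CPM in the escalating libraries, 6140.5 to 11105 CPM (median 9333) in saline withdrawal and 6840 to 8917 CPM (median 7986) in nonescalating withdrawal. Group ranges overlapped, and the inputs had 8015 and 10255 CPM. Across libraries, the sum was lower where the share of records in no feature was high. The 12 polysome libraries with a share under 40% had 7181 to 11401 CPM (median 9197). The 6 with 40% to 50% had 5524 to 8245 CPM (median 6652). The 6 with 50% or more had 4377 to 7728 CPM (median 5994). Within groups, the library with the lowest sum was the one with the highest share in 4 of the 5 groups, and the library with the highest sum the one with the lowest share in 2 of 5. The part of this share in the group comparisons below was not tested.

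**Figure D2:**
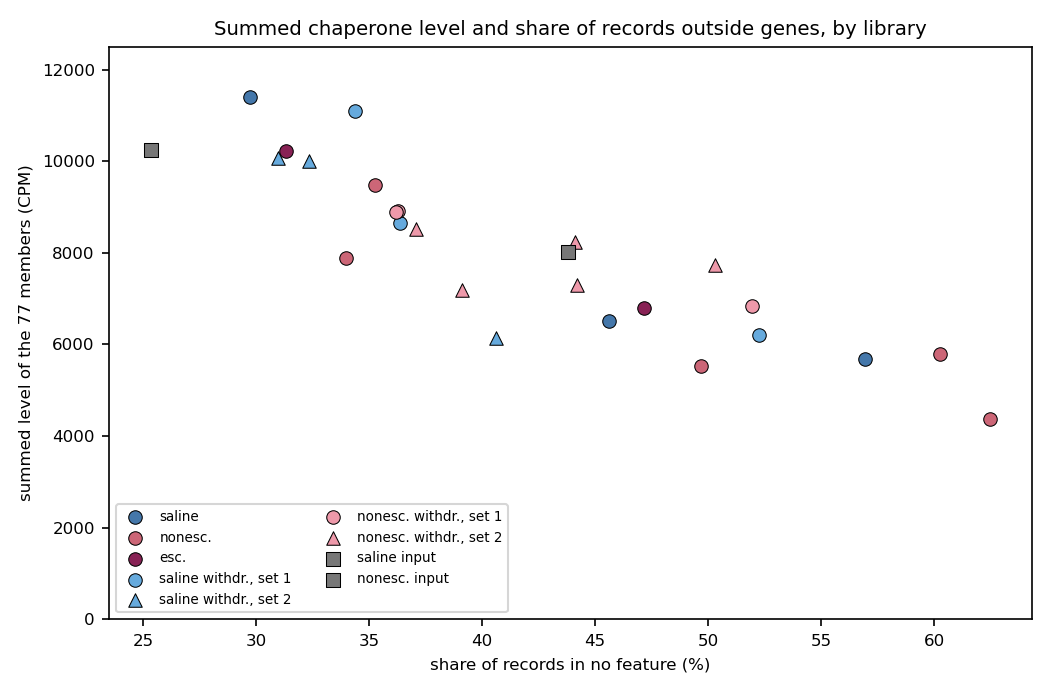
Summed level of the 77 members (CPM) against the share of records in no feature (%) for each library; colours mark groups, circles library set 1, triangles set 2 and squares inputs. Sums fall from 11401 CPM at the lowest share of the polysome libraries to 4377 CPM at the highest.

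The comparisons between groups ask about cocaine intake, its escalation and withdrawal. In 7 comparisons over 15854 genes, 74 members were tested (Hspa1b, Dnajb3 and Cct8l1 were too low) and none passed an adjusted p of 0.05 with edgeR's quasi-likelihood test, DESeq2 or limma voom; edgeR called 0% of all genes in each comparison. Counts at an unadjusted p under 0.05 were small for the members too, and are read below against the share of all genes.

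Nonescalating against saline, 31 of 74 members had a log2 fold change above 0, against 50.4% of all genes, and the members' median was -0.16 (log2) against 0.01 for all genes. At an unadjusted p under 0.05, 1 member was higher (Dnajc12, against 3.54% of all genes) and 2 were lower (St13 and Hspa12a, against 3.19%). By family, 0 of 3 Hsp90, 2 of 10 Hsp70, 1 of 3 Hsp110 and 0 of 2 mitochondrial Hsp60 and Hsp10 genes lay above 0, while 4 of 8 chaperonin and 19 of 38 J-domain genes did. The difference between the members' median and that of all genes, -0.17, became 0.15 without saline replicate 3 and -0.34 without saline replicate 1, so its direction rests on saline replicate 3.

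St13 (Hip, which stabilizes the client-bound state of Hsp70; chromosome 15, 81363669 to 81400077, minus strand) had the smallest p of the members, though not the largest fold change. It had 116, 138 and 51.4 CPM in saline replicates 1, 3 and 4, against 44.5, 23.9, 47.0, 18.7 and 28.8 CPM in the nonescalating libraries. All 5 nonescalating libraries lay below all 3 saline ones, as for 1 of 74 members and 1.13% of all genes; 0 members and 1.26% of all genes had the opposite order. The log2 fold change was -1.68 (SE 0.46) with an adjusted p of 0.719, with -1.36 to -2.01 over single libraries left out and -0.75 against the saline withdrawal libraries of set 1. The escalating libraries had 53.6 and 134 CPM, above all 5 nonescalating ones (1.53, SE 0.51, adjusted p = 0.558), as was so for 4 of 74 members and 5.02% of all genes; without escalating replicate 2 the value was 0.71. After withdrawal, saline libraries had 28.3 to 87.2 CPM (median 60.5) and nonescalating ones 36.1 to 80.2 CPM (median 62.4), which overlap. The difference of the cocaine effect between withdrawal and none was 1.67 (SE 0.58, adjusted p = 0.972). None of these passed, and the comparisons share libraries.

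Other members with the smallest p in the same comparison were Hspa12a, an atypical Hsp70 (-0.69, SE 0.33, adjusted p = 0.729), and Cct2 (-1.02, SE 0.51, adjusted p = 0.738) on the lower side. Cct2 had 175, 282 and 56.0 CPM in saline and 30.2 to 125 CPM in nonescalating libraries, which overlap. On the higher side were Dnaja4, a class A J-domain gene (1.11, SE 0.70), Stip1 (0.76, SE 0.52) and Dnajc21, which acts in ribosome assembly (0.84, SE 0.61). Set against the saline withdrawal libraries of set 1 in place of saline, Dnaja4 was -0.83 and Stip1 -0.40, the opposite direction. Stip1 had 18.6, 133 and 45.9 CPM in saline against 134, 136, 178, 41.4 and 79.0 CPM in nonescalating libraries, so saline replicate 3 lay among the nonescalating ones.

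Escalating against saline, 35 of 74 members lay above 0, against 46.7% of all genes, and 0 had an unadjusted p under 0.05 (3.17% of all genes were higher and 4.93% lower at that level). The members' median was -0.02 against -0.08 for all genes. With 2 escalating libraries the sign depended on which was left out: the difference from all genes was 0.06 with both, 0.65 without replicate 1 and -0.33 without replicate 2. Stip1 (1.15, SE 0.62), Cct3 (1.37, SE 0.89) and Hspb1 (2.62, SE 1.80) had the smallest p on the higher side, and Dnajb14 (-1.75, SE 1.03), Dnajc1 (-1.78, SE 1.12) and Hspb8 (-2.51, SE 2.13) on the lower side. Cct3 had 9.92 and 93.5 CPM and Hspb1 31.9 and 1.47 CPM in escalating replicates 1 and 2, and both fold changes changed sign with 1 of these left out. Dnajc1, an ER membrane J-domain gene, had 415 CPM in saline replicate 1 and 54.8 and 19.8 CPM in the other saline libraries, and its fold change was 0.40 without replicate 1.

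Escalating against nonescalating, 44 of 74 members lay above 0, against 45.5% of all genes (median 0.20 against -0.12). Without escalating replicate 2 the count was 29, and the difference from all genes changed from 0.32 to -0.09. At an unadjusted p under 0.05, 2 members were higher (St13 and Dnajc7, against 3.44% of all genes) and 0 lower (5.31%). Dnajc7, which can hold both Hsp70 and Hsp90, had 135 and 194 CPM in escalating and 72.2 to 118 CPM in nonescalating libraries (0.91, SE 0.44, adjusted p = 0.558). Exons of Dnajc7 overlap Cnp and Nkiras2 on the other strand, so part of its count may be theirs. Dnajc27 and Hsp90ab1 also had both escalating libraries above all nonescalating ones, while Dnajc10, Dnajc21 and Hspa1a had both below (3 of 74, against 4.04% of all genes). These shares are near the background.

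**Figure D3:**
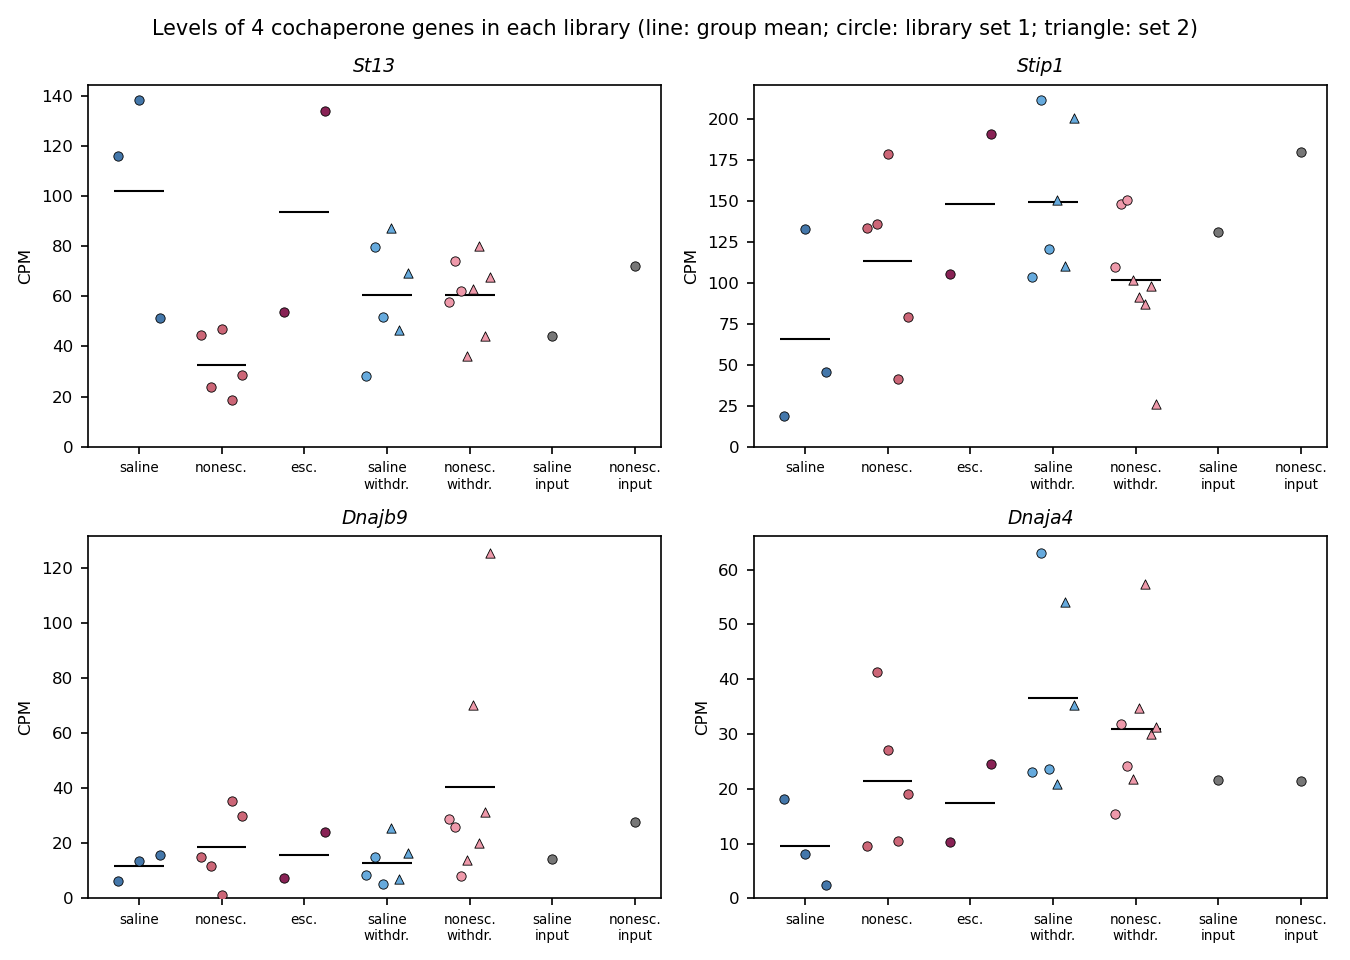
Level in CPM of St13, Stip1, Dnajb9 and Dnaja4 in every library by group; points are libraries (circles set 1, triangles set 2) and lines group means. The 5 nonescalating libraries of St13 (18.7 to 47.0 CPM) lie below the 3 saline ones (51.4 to 138 CPM), and replicate 5 of nonescalating withdrawal in set 2 stands at 125 CPM of Dnajb9.

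After withdrawal, nonescalating against saline, 32 of 74 members lay above 0, against 53.5% of all genes (median -0.09 against 0.05). By family, 1 of 8 chaperonin, 0 of 3 Hsp110, 1 of 3 Hsp90 and 17 of 38 J-domain genes lay above 0, against 6 of 10 Hsp70, 3 of 5 cochaperone and 3 of 5 small heat shock genes. At an unadjusted p under 0.05, 1 member was higher (Dnajb9, against 2.59% of all genes) and 0 lower (0.902%). The groups overlapped in every member tested, and 0.0189% of all genes had nonescalating wholly above and 0.0126% wholly below. Dnajb9 (ERdj4, an ER J-domain protein) had 5.34 to 25.6 CPM (median 11.8) in saline withdrawal and 8.02 to 125 CPM (median 27.5) in nonescalating withdrawal. The groups differed by 1.42 on the log2 scale (SE 0.64, adjusted p = 1), a value of 1.11 within set 1 and 1.70 within set 2, and 1.08 without the library at 125 CPM. On the lower side the smallest p belonged to Stip1 (-0.58, SE 0.37), Hsp90b1 (-0.45, SE 0.31) and Dnajb1 (-0.92, SE 0.65), each with overlapping groups, and on the higher side after Dnajb9 to Dnajb2, a neuronal J-domain gene (0.71, SE 0.48), and Dnaja3, a mitochondrial one (0.43, SE 0.56).

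Saline withdrawal against saline, 45 of 74 members lay above 0, against 47.5% of all genes (median 0.14 against -0.05). The difference from all genes was 0.20, and 0.01 without saline replicate 1. At an unadjusted p under 0.05, 3 members were higher (Dnaja4, Stip1 and Dnajc12, against 2.67% of all genes) and 0 lower (3.97%). Dnaja4 (chromosome 9, 54698873 to 54716315, plus strand, with exons that overlap Wdr61 on the other strand) had 18.2, 8.14 and 2.45 CPM in saline and 20.8 to 63.1 CPM (median 29.5) after withdrawal, so the groups did not overlap, as for 1 of 74 members and 1.22% of all genes; 0 members and 1.09% had the opposite order. Its log2 fold change was 1.71 (SE 0.73, adjusted p = 0.742). Stip1 (chromosome 19, 7020702 to 7039967, minus strand) had 104 to 211 CPM (median 136) after withdrawal against the 3 saline values above (1.35, SE 0.56, adjusted p = 0.742); the value was 0.91 without saline replicate 1 and 2.46 without saline replicate 3. Dnajc12 had 0 counts in all 3 saline libraries and 0 to 18.2 CPM after withdrawal, at the limit of detection. On the lower side the smallest p belonged to Hspa12a (-0.67, SE 0.34), Dnajc1 (-1.49, SE 0.85) and St13 (-0.85, SE 0.49). The direction of Dnajc1 rests on saline replicate 1: it was 0.70 without that library and 0.86 without the 3 libraries of lowest correlation.

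Nonescalating withdrawal against nonescalating, 51 of 74 members lay above 0, against 50.5% of all genes (median 0.21 against 0.01), with 45 to 57 members above 0 over the libraries left out. Without nonescalating replicate 4 the difference from all genes was 0.07 in place of 0.20. All 3 Hsp90, all 3 Hsp110 and both mitochondrial Hsp60 and Hsp10 genes lay above 0, as did 9 of 10 Hsp70, 6 of 8 chaperonin, 22 of 38 J-domain and 2 of 5 small heat shock genes. At an unadjusted p under 0.05, 0 members were higher (1.20% of all genes) and 0 lower (1.58%), and 0 members had groups that did not overlap (0.0631% of all genes higher, 0.0568% lower). The smallest p belonged to St13 (0.82, SE 0.42), Hsph1 and Hspe1 (0.98, SE 0.70) among the higher members and to Dnajb14 (-1.06, SE 0.68), Dnajb12 (-1.0, SE 0.88) and Dnajc19 (-0.71, SE 0.72) among the lower. The share of records in no feature was 34% to 62.5% in nonescalating and 36.2% to 52.0% in nonescalating withdrawal libraries. The part of this share in the result was not tested.

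For the difference of the cocaine effect between withdrawal and none, 41 of 74 members lay above 0, against 53.3% of all genes (median 0.11 against 0.07). The members' difference from all genes, 0.03, changed sign in 8 of 22 fits with a library left out, from -0.16 without saline replicate 3 to 0.15 without saline replicate 4, and the count above 0 ran from 29 to 52. At an unadjusted p under 0.05, 1 member was higher (St13, against 2.66% of all genes) and 2 were lower (Stip1 and Dnajc12, against 2.24%). The Stip1 value was -1.34 (SE 0.64, adjusted p = 1).

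**Figure D4:**
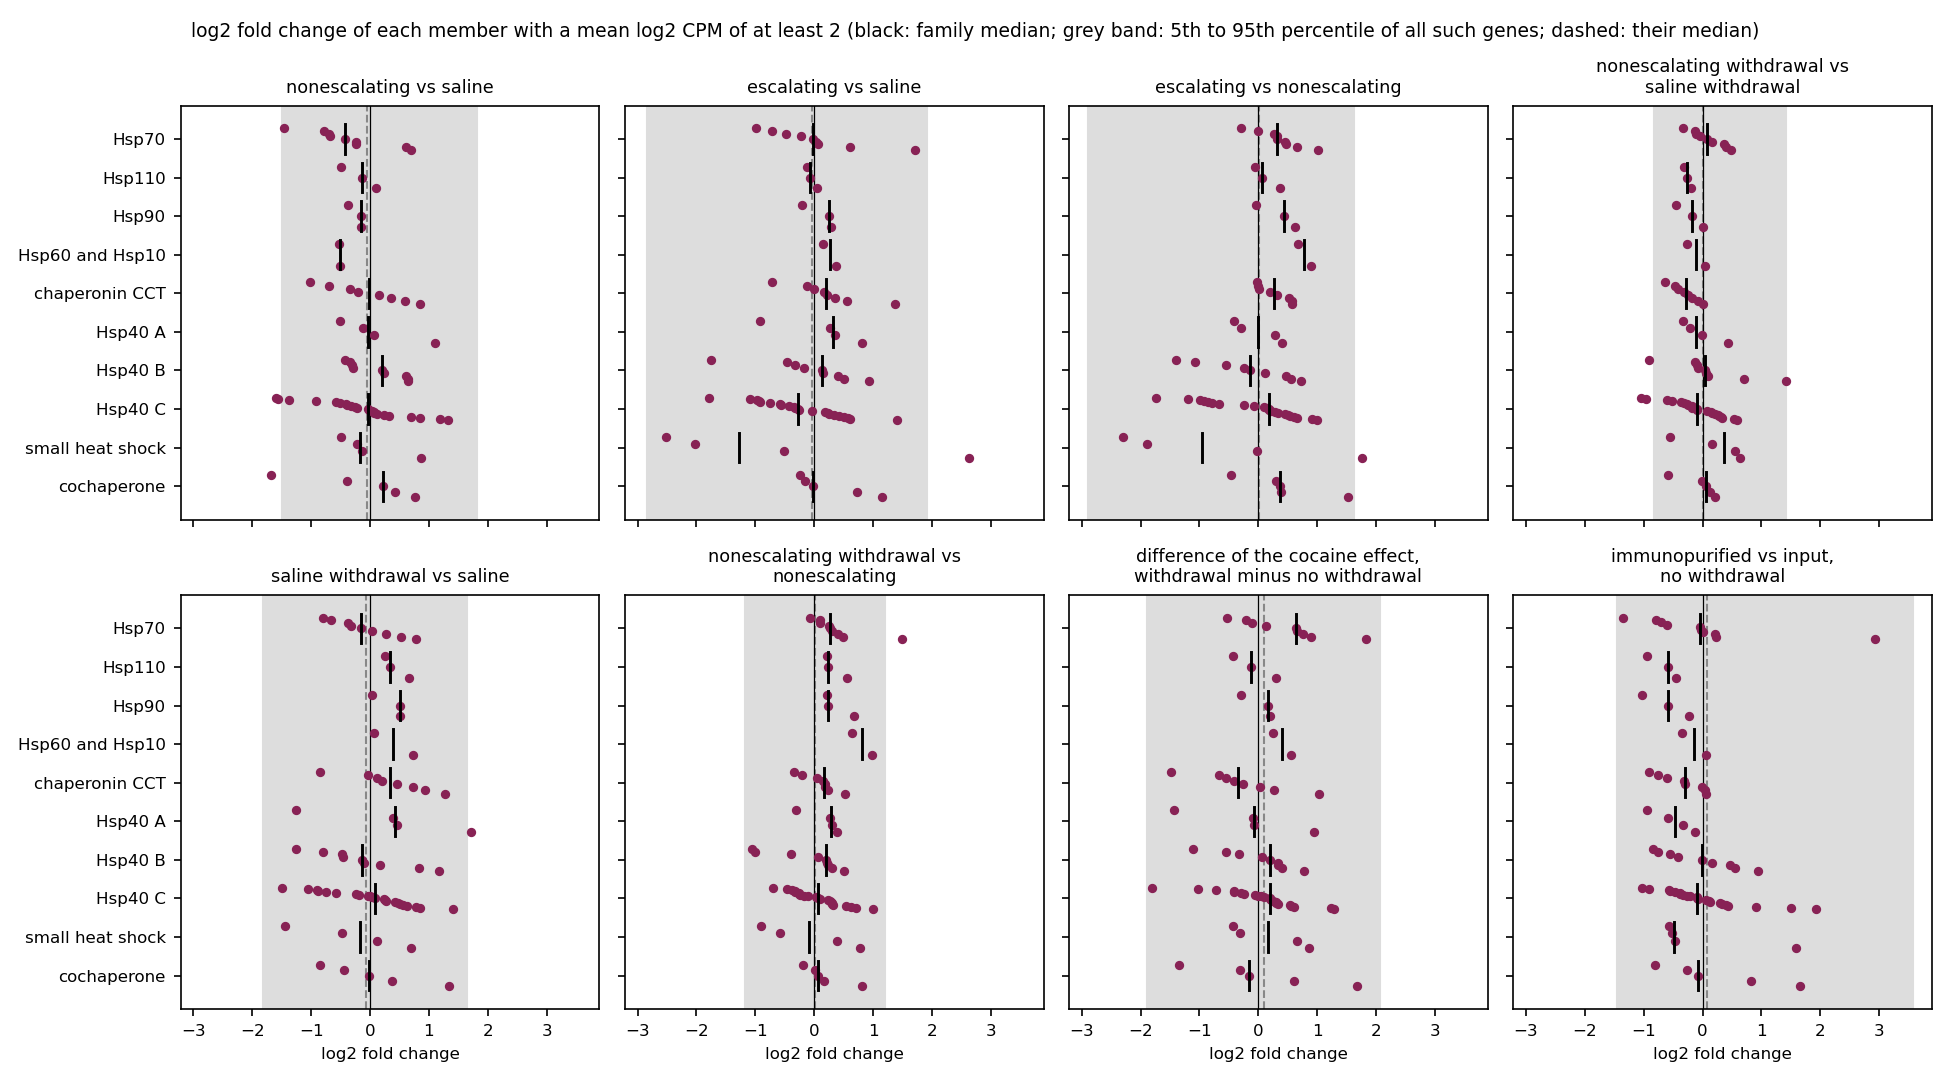
log2 fold change of each member whose mean log2 CPM reached 2, by family, in the 7 group comparisons and in immunopurified against input RNA; black bars are family medians, the grey band spans the 5th to 95th percentile of all genes of that level and the dashed line is their median. Of 70 members, at most 3 lie below and at most 1 above the band in any group comparison.

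Pull-down against input RNA was compared in 8 polysome libraries without withdrawal (3 saline, 5 nonescalating) and the 2 inputs, so the spread among inputs is hardly known. In all, 26 of 74 members lay above 0, against 53.0% of all genes (median -0.25 against 0.07). The count was 36 without the nonescalating input and 22 without the saline input. The members' difference from all genes was -0.32, and ran from -0.49 to -0.22 with single libraries left out. All 3 Hsp90, all 3 Hsp110 and all 4 Dnaja genes lay below 0, as did 6 of 8 chaperonin, 6 of 10 Hsp70 and 19 of 34 Dnajb and Dnajc genes. None passed with edgeR, which called 38 of 14929 genes (0.255%). DESeq2 called 758 genes, of which 1 was a member (Hspa12b), and limma voom called 1091, of which 8 were members. At an unadjusted p under 0.05 with edgeR, 1 member was higher (6.05% of all genes) and 1 lower (2.22%). Hsp90aa1 had 648 and 366 CPM in the nonescalating and saline inputs against 59.3 to 509 CPM in the 8 libraries (-1.03, SE 0.59, adjusted p = 0.726). Dnaja1 had 178 CPM in both inputs, above all 8 libraries (32.8 to 168 CPM; -0.94, SE 0.54, adjusted p = 0.733), an order that 2 of 74 members and 4.36% of all genes had. Hspa4l had a similar value (-0.95, SE 0.53, adjusted p = 0.708). These 3 passed with limma voom (adjusted p = 0.016, 0.0473 and 0.0433). On the higher side the smallest p after Hspa12b belonged to Dnajc19, part of mitochondrial protein import (1.93, SE 1.01), and Dnajc1 (1.5, SE 0.88). Dnajc19 alone had all 8 libraries above both inputs, against 3.24% of all genes.

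Hspa12b, an atypical Hsp70 known from endothelial cells (chromosome 2, 131127280 to 131146321, plus strand), had the smallest p of all members in this comparison. It had 142, 10.3 and 88.5 CPM in saline and 84.0, 302, 39.0, 97.8 and 101 CPM in nonescalating libraries, against 19.3 and 7.62 CPM in the saline and nonescalating inputs. All but saline replicate 3 lay above both inputs. The log2 fold change was 2.93 (SE 1.02, adjusted p = 0.314), with 4.01 without the saline input and 2.05 without the nonescalating input, and the adjusted p was 0.00733 with DESeq2 and 0.0061 with limma voom. The summed level of 7 endothelial markers was 687 to 3420 CPM in these 8 libraries against 221 and 81.6 CPM in the inputs, and none of the 7 was at 0 in any group. In each of the 5 polysome groups the library with the highest Hspa12b was also the one with the highest endothelial sum, while the lowest of both fell in the same library in 3 of the 5 groups. The part of endothelial RNA in the Hspa12b result was not tested.

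Library set 2 against set 1, a comparison added after seeing the data and estimated from the withdrawal libraries, gave the 1 member past the threshold. Bag3, a nucleotide exchange factor of Hsp70 that links it to small heat shock proteins and autophagy (chromosome 7, 128523616 to 128546981, plus strand), had 25.9, 22.4 and 8.97 CPM in the saline withdrawal and 37.9, 47.8 and 25.5 CPM in the nonescalating withdrawal libraries of set 1. In set 2 it had 8.27, 3.28 and 0.342 CPM in saline withdrawal and 0.729 to 7.22 CPM (5 libraries, median 2.39) in nonescalating withdrawal. All 8 libraries of set 2 lay below all 6 of set 1, an order that 1 of 74 members and 0.624% of all genes had, while 0 members had the opposite order (0.454% of all genes). The log2 fold change was -2.95 (SE 0.66, adjusted p = 0.0172), among 145 of 15854 genes that passed (0.915%). Without nonescalating withdrawal replicate 1 of set 1 it was -2.86 with an adjusted p of 0.0628. Without the 3 libraries of lowest correlation it was -2.81 (adjusted p = 0.0256).

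Sums of vascular markers also differed in range between the sets: the 8 mural markers summed to 1184 to 4104 CPM in the 6 libraries of set 1 and to 133 to 657 CPM in the 8 of set 2, and the 7 endothelial markers to 541 to 3471 and 225 to 854 CPM. The 5 markers of GABA interneurons summed to 86.3 to 275 CPM in set 1 and 42.04 to 95.04 CPM in set 2, with a small overlap, while the D2 markers overlapped widely (3493 to 8063 CPM in set 1, 3995 to 8200 CPM in set 2). The part of these cell types in the Bag3 result was not tested. The library with the highest Bag3 was the one with the highest mural sum in 2 of the 5 polysome groups. The lowest of both fell in the same library in 3 of the 5. With the endothelial sum the counts were also 2 and 3. Outside the withdrawal groups, Bag3 had 67.9, 12.4 and 18.7 CPM in saline, 2.90 to 51.0 CPM in nonescalating and 31.2 and 35.7 CPM in escalating libraries, all of set 1, and 9.43 and 9.20 CPM in the inputs. Members with an unadjusted p under 0.05 numbered 3 higher in set 2 (4.62% of all genes) and 2 lower (8.86%). Members with the smallest p besides Bag3 were Dnajb2 (-1.24, SE 0.47, adjusted p = 0.22) and Hspa12b (-1.10, SE 0.59, adjusted p = 0.43) on the lower side, and Hspa12a (0.66, SE 0.25, adjusted p = 0.225), Dnajc27 (0.60, SE 0.27, adjusted p = 0.317) and Dnajb14 (1.31, SE 0.59, adjusted p = 0.324) on the higher side. In all, 42 of 74 members lay above 0, against 45.9% of all genes.

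**Figure D5:**
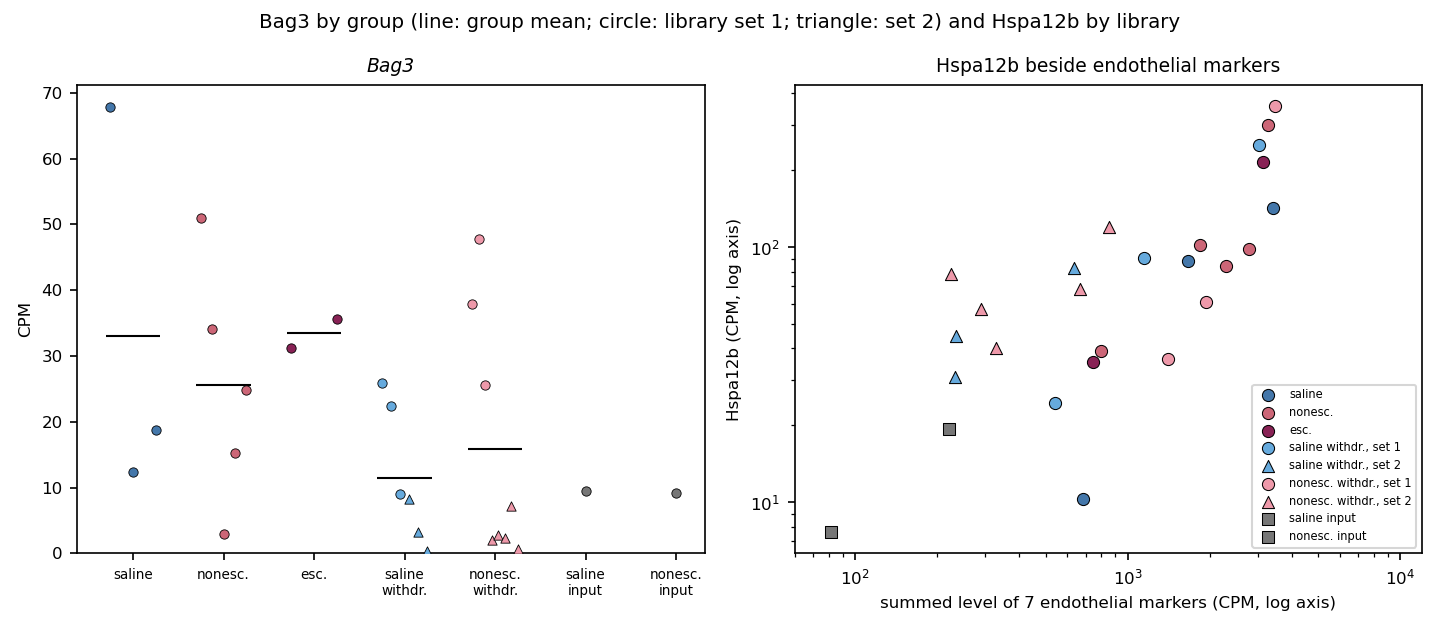
Left, Bag3 in CPM in every library by group, with circles for library set 1, triangles for set 2 and lines for group means; all triangles lie at or below 8.27 CPM. Right, Hspa12b against the summed level of 7 endothelial markers (both in CPM, log axes) for each library, with the inputs as squares (19.3 and 7.62 CPM of Hspa12b).

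Genes of the same pathways outside the members gave no call in these comparisons. A list of 4 genes held the heat shock factors Hsf1, Hsf2 and Hsf4 and their binding protein Hsbp1. Of these, 22 further cochaperones of Hsp70 and Hsp90, 6 prefoldins, 7 mitochondrial, 16 ER folding and unfolded protein response genes, 5 genes of clathrin and its uncoating, and Cryab, 0 passed with edgeR in any of the 7 group comparisons or against input. Nonescalating against saline, 8 of 22 cochaperones lay above 0, against 50.4% of all genes (median -0.43 against 0.01, log2), with 1 below at an unadjusted p under 0.05, against 3.19% of all genes (Cdc37, the kinase adaptor of Hsp90), and 6 of 16 ER genes (median -0.25), with 1 below (Hyou1, an ER relative of Hsp110; -1.5, SE 0.45, adjusted p = 0.719). Among heat shock factors Hsf1, the main regulator of the heat shock response, had the smallest p (-1.27, SE 0.54, adjusted p = 0.719). In the same comparison 5 of 6 prefoldin, 4 of 7 mitochondrial and 3 of 5 clathrin and uncoating genes lay above 0. Of the cochaperones, 16 of 22 lay above 0 escalating against nonescalating (45.5% of all genes) and 17 of 22 nonescalating withdrawal against nonescalating (50.5%). After withdrawal, nonescalating against saline, 8 of 22 did (53.5%). At unadjusted p under 0.05, the heat shock factor list held 1 lower gene nonescalating, escalating and saline withdrawal against saline (3.19%, 4.93% and 3.97%). That list also held 1 lower gene escalating against nonescalating (5.31%) and 1 higher gene nonescalating against saline after withdrawal (2.59%). These lists were not refitted with libraries left out.

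The genes outside the set whose log2 CPM over the 24 polysome libraries was most like the members' mean were Psmc2 (Pearson r = 0.864), Krt9 (0.848) and Adra2c (0.842). Among members, Hspa5 was nearest to that mean (r = 0.813), followed by Hspa4l (0.776) and Cct7 (0.774), each being part of the mean. The libraries differ in depth and in the share of records in no feature, which all these genes share, so the values are descriptions only.

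Several levels carry a limit from sequence alone. Besides the genes named above, Hsp90aa1 shares 47.5%, Hspa8 38.6%, Dnajb6 17.7% and Dnaja1 11.9% of their 50-base stretches with pseudogenes or other genes, while Cct2, Bag3, Dnaja4 and Dnajc6 share none. In the deposited counts, records with several alignments stood in a row apart from the genes, at 6.52% to 41.2% of records in the polysome libraries. Levels of the former may therefore be too low. Exons of other named members, among them Dnaja1, Dnajc1, Dnajc19 and Hspa12a, also overlap genes on the other strand.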

How the data were processed

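The authors deposited raw counts by gene symbol, 1 file a library. The submitters' processing notes name STAR 2.0.0e, HTSeq and mm10. Annotation, strand setting and HTSeq version are not stated there or in the labels. Rows of HTSeq's own summary, and those naming no gene, were set aside before any total was taken. Titles gave each library its group and number.

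Tests used R 4.3.3 with edgeR 4.0.16 (quasi-likelihood test, robust, TMM factors, genes kept by filterByExpr at 10 counts, Benjamini-Hochberg over all genes, threshold 0.05). A first fit held all 24 polysome libraries, with terms for group and for library set; another held 8 polysome libraries and the 2 inputs, with terms for pull-down and for saline or cocaine. Saline, nonescalating and escalating libraries lie in set 1 only, so the set term comes from the withdrawal libraries. SE was taken as the absolute log2 fold change over the root of its F statistic. CPM use TMM factors, and RPKM use merged exon lengths of GENCODE M21 (GRCm38). DESeq2 1.42.0 and limma 3.58.1 (voom, libraries weighted by quality), other filters, scaling by median of ratios, other sets of libraries, a replicate block and each library left out in turn were alternatives. The fitting was tried on simulated data for nonescalating against saline after withdrawal only, so the other comparisons were not covered. Lowest chi-square per degree of freedom between libraries of 1 group was 19.0 over 57 pairs, so none was counted as a repeat.

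The members and all gene lists were chosen with earlier results of these data known. Named genes are a core list of chaperones, the 3 members with the smallest p in each direction per comparison among those whose mean log2 CPM reached 2, the highest and lowest member per family and length, the 3 genes most like the members' mean, and Drd2 and Malat1. Further members are named, after their values were seen, where a count is 5 or fewer.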

Additional observations from a re-analysis of the deposited data

Results flagged for a closer look

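Among 68 sets of levels tested in the groups of 4 to 10 libraries, 6 had 1 library far from the others by Dixon's criterion; chance alone gives this in about 1 of 20 sets, so that several of the 6 may be chance. Replicate 5 of nonescalating withdrawal in set 2, which has the lowest depth (1541717 counts), held 3 of them: Hspa5 at 15.3 CPM (the other 7 libraries 69.5 to 114 CPM), Hspa9 at 23.3 CPM (59.6 to 111 CPM) and Stip1 at 26.3 CPM (87.4 to 151 CPM). Saline withdrawal replicate 1 of set 1 held 2: Hspe1 at 5.76 CPM (the other 5 libraries 36.8 to 74.7 CPM) and Dnaja1 at 50.4 CPM (121 to 204 CPM). Nonescalating withdrawal replicate 1 of set 1 had Dnajc6 at 61.2 CPM (the other 7 libraries 146 to 226 CPM).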

How the results depend on the processing

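No member passed in the 7 group comparisons under any alternative run. DESeq2 called 34 genes nonescalating against saline, 143 escalating against saline, 225 escalating against nonescalating, 2 for cocaine after withdrawal, 30 for withdrawal in saline and 11 for the difference, where edgeR called 0; limma voom called 8 escalating against nonescalating. Against input, edgeR called 38 genes, DESeq2 758 (1 member), limma voom 1091 (8 members), no filter 132, a filter of CPM of at least 1 70 and the replicate block 257. Between library sets, edgeR called 145, DESeq2 666, limma voom 459 and the replicate block 93. With single libraries left out, counts were 0 to 1 escalating against saline, 0 to 2 escalating against nonescalating, 1 to 252 against input and 50, 77, 91 and 94 between sets for the 4 libraries that moved it by over 1.5 times, and 0 members between sets without nonescalating withdrawal replicate 1 of set 1. Same-numbered libraries of different groups or sets had a median r of 0.0254 between their deviations from the group means (53 pairs, 14 above 0.1). Libraries of other numbers had a median r of 0.001 (190 pairs, 37 above 0.1). The groups are small, so these values cannot tell whether the numbers mark a pairing. The replicate block called 0 members in the group comparisons and kept Bag3 (-2.78, adjusted p = 0.0191).

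Of 54 named values under 1110 alternatives, 8 alternatives changed sign. Against saline withdrawal of set 1, nonescalating Dnaja4 was -0.83 and Stip1 -0.40. Escalating against saline, Cct3 was -0.996 without escalating replicate 2, Hspb1 -0.84 without escalating replicate 1, and Dnajc1 0.40 without saline replicate 1 and 0.39 without the 3 libraries of lowest correlation. For saline withdrawal, Dnajc1 was 0.70 and 0.86 under the same 2 settings. Median-of-ratios scaling moved the median of all genes by -0.13 escalating against nonescalating. Over single libraries left out, these values reached 2.29 (Cct3), 3.57 (Hspb1), -3.88 (Dnajc1, escalating) and -1.93 (Dnajc1, saline withdrawal) at the other end. The cause of these shifts was not tested.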
